A study of Mus musculus with 10 samples.

Results

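Hyper-organoids are mouse small intestinal organoids grown in a medium of 8 components, and -VE-organoids were grown in the same medium without valproic acid (VPA) and EPZ6438. The comparison asks what these 2 epigenetic inhibitors add. All kept cells of the 3 Hyper-organoid libraries (2812, 3523 and 1983 cells in replicates 1, 2 and 3) and of the 2 -VE-organoid libraries (2390 and 4293 cells) were used, that is 15001 of the 22139 kept organoid cells and 5 of the 10 libraries of the series. RNA was read by droplet single-cell sequencing (10x Genomics 3′ chemistry), in which each unique molecular identifier (UMI) stands for 1 captured RNA molecule. UMIs were summed per library over all kept cells, and again within 4 of the authors' cell classes: stem cells (SC), transit amplifying cells (TA), goblet cells (GC) and enteroendocrine cells (EE).

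Crypts from the proximal mouse small intestine were grown in Matrigel. Both media held LDN193189, which blocks BMP receptors, GSK-3 Inhibitor XV, which raises β-catenin signalling, Pexmetinib, which inhibits p38 kinases, EGF, FGF2 and R-Spondin 1 conditioned medium, so both groups carried these treatments. Hyper medium also held 500 µM VPA and 2 µM EPZ6438, and -VE medium held neither. Hyper-organoid replicates 1 and 2 and -VE-organoid replicates 1 and 2 were derived from ENR-organoids (grown with EGF, Noggin and R-Spondin 1) and were at passage 1 and 6. Hyper-organoid replicate 3 came from primary crypts at passage 3 and had no -VE partner. The libraries are grouped here into culture series 2, 6 and C by the first character of their library names. This grouping is inferred: the labels do not say that a series shares an ENR-organoid culture, or that the series were separate cultures. With 1 library for each medium and series, the series, its passage and its replicate number cannot be told apart. The gene tests shared 1 fit with 3 ENR-organoid libraries, at passage 2, 7 and 3, so their p-values rest on the spread between all 8 organoid libraries. ENR-organoid replicate 3 came from primary crypts, and the labels give no origin for ENR-organoid replicates 1 and 2. The study's methods give young adult mice for organoid culture and name C57BL/6 and Lgr5 reporter lines, but the labels tie no line, age or sex to a library.

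VPA inhibits class I and II histone deacetylases (HDACs), which remove acetyl groups from histones and so favour closed chromatin. EPZ6438 (tazemetostat) inhibits EZH2, the enzyme of Polycomb repressive complex 2 (PRC2) that places methyl groups on lysine 27 of histone H3, a mark that keeps developmental and other lineage genes silent. In the crypt, stem cells with Lgr5 divide and feed the transit amplifying cells, from which absorptive enterocytes and secretory Paneth, goblet and enteroendocrine cells arise.

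The 5 libraries were deep, with 90265268 to 170019527 UMIs in kept cells and a median of 38999 to 50652 UMIs per cell, and 0 to 5 cell barcodes were shared by any pair of libraries. The class markers that the study used were checked on CPM (UMI counts scaled to 1000000), here pooled over the libraries of a group and elsewhere scaled per library. Those of EE (Chga, Chgb, Cck, Neurog3) and TA (Top2a, Hmgb2, Tubb5) were highest where the labels put them, but the TA marker Ube3c was highest in EE. Those of GC (Agr2, Tff3, Muc2, Fcgbp) were highest in GC among these 4 classes. Lgr5 did not separate SC from TA, with 152 CPM in both in Hyper-organoids and 88.0 against 86.6 CPM in -VE-organoids, so SC and TA are used here as the authors' class names only. Hyper-organoid replicate 3 stood apart: it had no UMI of the Y-linked genes Eif2s3y and Ddx3y, while the other 4 libraries had 12.1 to 15.7 CPM of Eif2s3y, and it had no -VE partner. Counts are therefore also given without it.

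Across all kept cells, adding VPA and EPZ6438 went with many more genes higher than lower. Of 16037 genes tested, 18.6% differed at least 2-fold at an adjusted p below 0.05 in edgeR's quasi-likelihood test (called genes), with 16.1% higher and 2.51% lower in Hyper-organoids. The 2582 higher genes were mostly scarce without the inhibitors: together they made up 0.430% and 0.378% of UMIs in the 2 -VE-organoid libraries, and 1.66%, 1.83% and 1.80% in the 3 Hyper-organoid libraries. ENR-organoids, which received neither inhibitor, held 0.354% to 0.392%. The 403 lower genes went from 1.41% and 1.55% of UMIs in -VE-organoids to 0.545%, 0.495% and 0.572% in Hyper-organoids, against 1.68% to 1.88% in ENR-organoids. Leaving out Hyper-organoid replicate 3 gave 2765 called genes, which held 88.4% of the calls.

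The calls were unevenly spread over expression levels. Of the 4080 genes with a mean under 1 CPM over the 5 libraries, 31.8% were higher and 4.98% lower in Hyper-organoids. Of the 1369 genes over 100 CPM, 0.877% were higher and 1.31% lower. The median difference of the higher genes was 2.46 on the log2 scale (5.51-fold) and that of the lower genes was -1.70 (3.25-fold), and 836 higher and 43 lower genes differed at least 10-fold. The groups did not overlap for 2577 of the higher genes and 401 of the lower genes, beside 34.2% of all genes tested with every Hyper-organoid library above both -VE-organoid libraries and 32.9% with every one below. Calls and overlap rest on the same values, so this is a description.

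**Figure D1:**
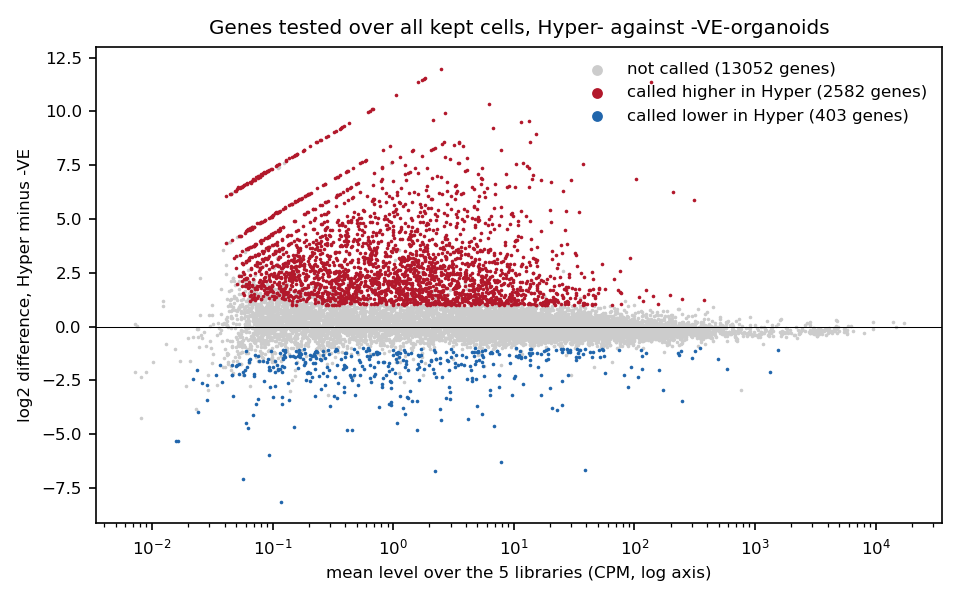
Each point is a gene of the test over all kept cells, with its mean level over the 5 libraries in CPM on a log axis and its log2 difference, Hyper minus -VE, on the vertical axis; coloured points are called genes. Higher calls gather at low levels, and the oblique streaks at the left are genes with 0 or few UMIs in -VE-organoids, whose fitted difference depends on the prior count.

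A group of 25 genes, chosen by a rule set after the values were seen, was under 1 CPM in both -VE-organoid libraries and at 10 CPM or more in every Hyper-organoid library, and all 25 code for proteins, among them Amotl1, Arxes2, Bex4, Ccdc88a, Cpne8, Emb, Enah, Fstl1, Gja1, Gmpr, Gpx8, H2afy2, Ifitm1, Ift57, Irak1bp1, Itm2a, Ldhb, Lpl, Peg3, Sox11, Tceal8, Tesc, Tubb6 and Zfhx4. The reverse pattern was seen for 2 genes, Ces1f and Slco2b1.

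Bex4 (ENSMUSG00000047844, X:136138996-136140443, mm10), a small brain-expressed X-linked gene of the Bex family, was at 181, 270 and 238 CPM in Hyper-organoid replicates 1, 2 and 3 and at 0.103 and 0.0731 CPM in -VE-organoid replicates 1 and 2. Every Hyper-organoid library thus lay over 3 orders of magnitude above both others (log2 difference 11.37 ± 0.31 SE, edgeR adjusted p = 1.34e-06). Ldhb, the heart-type lactate dehydrogenase subunit (6:142490249-142507957), was at 64.1, 56.2 and 66.2 CPM against 0.513 and 0.177 CPM (7.57 ± 0.35, adjusted p = 6.52e-06), and Hyper-organoid libraries lay close together. Lpl, the lipoprotein lipase that frees fatty acids from triglycerides (8:68880491-68907448), was at 23.4, 21.9 and 26.1 CPM against 0.257 and 0.116 CPM (7.05 ± 0.34, adjusted p = 8.16e-06). In ENR-organoids these 3 genes were at 0.0119 to 0.167 CPM. Because -VE-organoid UMIs were few, the size of such differences moved with single libraries: without -VE-organoid replicate 1 it was 8.46 for Ldhb and 7.68 for Lpl, and without -VE-organoid replicate 2 it was 6.93 for Ldhb, and all stayed called.

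Zfhx4, a large zinc finger homeobox factor, was at 10.9, 27.6 and 28.1 CPM in Hyper-organoids and at 0.0513 and 0.0122 CPM in -VE-organoids (9.54 ± 0.73, edgeR adjusted p = 6.27e-05), lowest in the Hyper-organoid library of passage 1. Itm2a, a small membrane protein, was at 25, 24.4 and 19 CPM against 0.111 and 0.0183 CPM (8.59 ± 0.42, adjusted p = 8.87e-06). H2afy2, which codes for the variant histone macroH2A2, was at 20.8, 24.0 and 19.3 CPM against 0.154 and 0.0913 CPM (7.48 ± 0.31, adjusted p = 4.87e-06). For each of the 3, no Hyper-organoid value overlapped a -VE-organoid value, but the rule that named the largest rises required this. Leaving out -VE-organoid replicate 1 or 2 gave 10.73 or 8.74 for Zfhx4 and 10.22 or 7.68 for Itm2a, all still called. Arxes1, whose sequence is close to that of its neighbour Arxes2 so that reads may be split between them, had 3960 UMIs in Hyper-organoids and 2 in -VE-organoids, a ratio of 1417 (95% counting interval 392 to 11702).

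**Figure D2:**
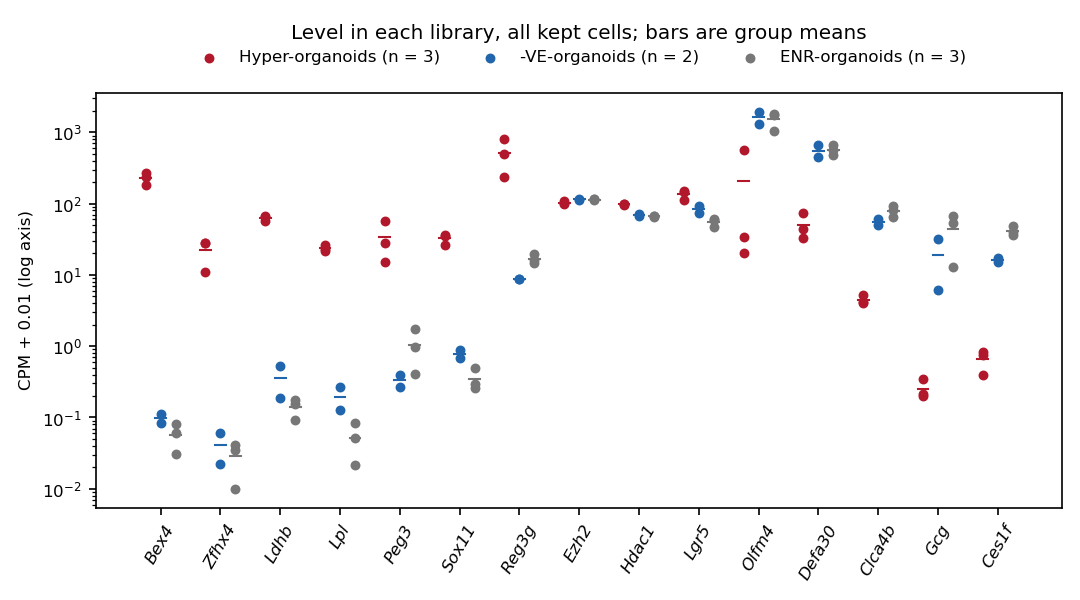
Levels of 15 genes in each library, in CPM plus 0.01 on a log axis, for Hyper-, -VE- and ENR-organoids; points are libraries and bars are group means. Bex4 sits between 181 and 270 CPM in the Hyper-organoid libraries and at 0.103 CPM or less in both -VE-organoid libraries, while Ezh2 lies between 98.9 and 116 CPM in all 5.

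Promoter sequences of 2 genes that rose and 2 that fell, all named by the rule on size, are shown as examples of the sequence at the start of genes with large differences; they do not stand for all called genes. CpG-dense promoters are the usual places of H3K27 methylation, as background. Each runs from 250 bases before to 50 bases after the gene's start, 5′ to 3′ on the gene's own strand, from RefSeq (GRCm38.p6), and capitals mark CpG dinucleotides. The positions are Bex4 X:136138746-136139045 (+), Ldhb 6:142507908-142508207 (-), Clca4b 3:144932480-144932779 (-) and Defa30 8:21134400-21134699 (+).
Bex4: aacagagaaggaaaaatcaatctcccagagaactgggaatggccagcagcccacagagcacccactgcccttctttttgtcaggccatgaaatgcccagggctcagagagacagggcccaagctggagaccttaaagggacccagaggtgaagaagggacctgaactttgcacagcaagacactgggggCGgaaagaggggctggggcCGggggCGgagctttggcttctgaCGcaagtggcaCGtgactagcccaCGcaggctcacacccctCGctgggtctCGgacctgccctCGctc
Clca4b: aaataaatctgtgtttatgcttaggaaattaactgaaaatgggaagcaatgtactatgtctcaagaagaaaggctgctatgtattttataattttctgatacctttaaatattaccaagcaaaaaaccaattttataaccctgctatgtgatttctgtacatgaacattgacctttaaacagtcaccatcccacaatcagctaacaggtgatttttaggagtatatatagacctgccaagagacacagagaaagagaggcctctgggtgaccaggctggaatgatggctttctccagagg
Defa30: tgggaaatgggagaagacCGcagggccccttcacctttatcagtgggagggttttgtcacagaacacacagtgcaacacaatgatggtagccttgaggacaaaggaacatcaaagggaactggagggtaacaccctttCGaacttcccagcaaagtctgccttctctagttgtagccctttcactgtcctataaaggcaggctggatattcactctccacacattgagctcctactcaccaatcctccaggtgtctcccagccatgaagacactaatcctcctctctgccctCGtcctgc
Ldhb: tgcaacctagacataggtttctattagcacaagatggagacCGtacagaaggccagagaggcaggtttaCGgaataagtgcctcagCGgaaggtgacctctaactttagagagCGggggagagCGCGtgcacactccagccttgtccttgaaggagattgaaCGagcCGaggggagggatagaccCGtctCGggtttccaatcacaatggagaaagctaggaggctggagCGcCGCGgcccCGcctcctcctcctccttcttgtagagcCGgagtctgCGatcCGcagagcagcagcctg
These windows held 9 CpGs for Bex4, 17 for Ldhb, 0 for Clca4b and 3 for Defa30. Of all 32851 promoters in the RefSeq table, 94.6% held at least 1 CpG, with a median of 7, and the median was 20 over the tested genes with a promoter, above all 4 shown. A comparison of CpG content between called and other genes is void here, since only 74.0% of the tested, 72.5% of the higher and 73.2% of the lower genes had a promoter in the table.

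No gene of the PRC2 and HDAC lists, which hold the targets of the inhibitors, was called. Over all genes 16.1% were called higher and 2.51% lower, and at 10 to 100 CPM 3.74% and 1.02%. Of 12 PRC2 genes tested, 0 were called by edgeR and 0 by DESeq2, with 2 higher and 6 lower at an unadjusted p under 0.05. Their median log2 difference was -0.18, beside 0.01 over all genes and -0.12 over genes at 10 to 100 CPM. Counts at an unadjusted p, here and below, stand without the share of all genes at that level. Ezh2, the target of EPZ6438, was at 110, 98.9 and 102 CPM in Hyper-organoids and at 116 and 113 CPM in -VE-organoids (-0.15, adjusted p = 0.0583). Eed, which binds the mark and stimulates EZH2, was at 43.1, 42.9 and 40.7 CPM against 52.6 and 56.3 CPM (-0.37, adjusted p = 0.00202, under 2-fold). All 3 Hyper-organoid values of both genes lay below both -VE-organoid values. Of 17 HDAC genes, 0 were called by either tool, with 6 higher and 4 lower at an unadjusted p under 0.05 (median 0.15). Hdac1 was at 99.7, 99.5 and 96.3 CPM against 70.3 and 67.8 CPM (0.51, adjusted p = 1.88e-04, under 2-fold), while Hdac2 differed by 0.03. Of 12 histone acetyltransferase genes 0 were called by either tool, with 0 higher and 8 lower at an unadjusted p under 0.05 (median -0.24). With no fold limit, edgeR at an adjusted p below 0.05 gave 2 PRC2 genes higher and 4 lower. It gave 6 HDAC genes higher and 4 lower, and 0 acetyltransferase genes higher and 7 lower. Those counts stand without the share of all genes.

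Among other chromatin genes, Bmi1, a core protein of Polycomb complex 1, which reads the PRC2 mark, was at 34.6, 39.5 and 34.9 CPM in Hyper-organoids and at 15.5 and 17.3 CPM in -VE-organoids (1.15, edgeR adjusted p = 5.45e-04), the 1 called gene among 18 of that complex. Of 18 histone genes 3 were higher and 0 lower, a share near the 16.1% of all genes. H1fx, a linker histone, was at 18.4, 34.9 and 20.7 CPM against 2.25 and 1.58 CPM (3.69), and Hist3h2ba, a histone H2B gene, at 9.60, 10.6 and 10.4 CPM against 0.377 and 0.262 CPM (5.01). H1f0, a linker histone of resting cells whose induction is a textbook response to HDAC inhibition, was at 582, 593 and 476 CPM against 291 and 285 CPM. This was 0.93 on the log2 scale and just under 2-fold, with an adjusted p of 6.02e-04, and it passed 2-fold without Hyper-organoid replicate 3 (1.03).

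Among developmental regulators a larger share was called higher than the 16.1% of all genes. Scarce genes were called higher more often too, with 31.8% of those under 1 CPM and 24.9% of those at 1 to 10 CPM. The filter admits genes that are high in Hyper-organoids alone, and such members can hardly be called lower. Homeobox genes of the Hox clusters, which set position along the body axis, had 11 of 18 members higher and 0 lower (median log2 difference 3.02; 5.99 without -VE-organoid replicate 1). Other developmental transcription factors had 39 of 79 higher and 0 lower (1.48; 0.56 among genes at 10 CPM or more), and imprinted genes, expressed from 1 parental allele and often active in growth of the fetus, had 16 of 35 higher and 0 lower (1.08; 0.47 at that level). Sox11, an embryonic SOX factor, was at 35.6, 36.8 and 25.9 CPM in Hyper-organoids against 0.864 and 0.670 CPM in -VE-organoids (5.43 ± 0.28, adjusted p = 1.05e-05). Peg3, a paternally expressed zinc finger gene, was at 15.2, 56.9 and 28.4 CPM against 0.385 and 0.256 CPM (6.73 ± 0.83, adjusted p = 4.71e-04). Hoxa5 was at 3.51, 11.8 and 7.93 CPM against 1.25 and 0.980 CPM (2.80 ± 0.47, adjusted p = 0.0021). For Hoxa5, Peg3 and Zfhx4 the culture at passage 1 was the lowest of the Hyper-organoid libraries, though still above both -VE-organoid libraries. Hoxb8 had 785 UMIs in Hyper-organoids and 2 in -VE-organoids, a ratio of 281 (77.5 to 2323). Its log2 difference by the fit was 8.17, with 11.2 and 7.05 without -VE-organoid replicate 1 and 2 and 6.8 without Hyper-organoid replicate 3. Twist1, a mesodermal bHLH factor, was at 4.23, 10.8 and 11.9 CPM against 0.0342 and 0.0670 CPM (7.39). The call for Hoxa7 rested on -VE-organoid replicate 2: it was 3.05 with all libraries and 2.24 with an adjusted p of 0.0527 without that library, and 4.98 without -VE-organoid replicate 1. Peg3 was at 6.11 without Hyper-organoid replicate 2 and Twist1 at 8.01 without -VE-organoid replicate 2, both still called.

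The Bex and Tceal genes, a cluster of small X-linked genes best known in the nervous system, were all called, 10 of 10 tested (median 5.02; 3.64 and 3.47 without Hyper-organoid replicate 2 and 3). Their median was 3.48 with no low-count filter and 3.39 without the cells with most UMIs. The list was drawn up with earlier results of these data known, and the filter admits genes that are high in Hyper-organoids alone. Bex1 was at 141, 196 and 172 CPM in Hyper-organoids and at 1.52 and 1.37 CPM in -VE-organoids (6.88), Bex2 at 45.0, 57.5 and 48.6 against 5.50 and 3.81 CPM (3.44), and Bex3 at 171, 179 and 170 against 55.8 and 51.4 CPM (1.69). All Hyper-organoid libraries lay above both others for each. These neighbours have similar sequences, for which the authors' counting may split or drop shared reads, so their separate values are uncertain. Of 68 neuronal genes, 43 were higher and 1 lower, beside 16.1% and 2.51% of all genes, with a median of 1.90 that was 0.50 among genes at 10 CPM or more. Dpysl5, which steers axon growth, was at 25.7, 22.2 and 16.8 CPM against 5.14 and 2.59 CPM (2.49), and the 1 lower gene, the adhesion molecule L1cam, was at 7.28, 7.63 and 7.73 CPM against 18.4 and 21.2 CPM (-1.39, edgeR adjusted p = 3.68e-05).

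Genes of the cell surface and matrix were called in part, beside 16.1% of all genes called higher, 31.8% of those under 1 CPM and 24.9% of those at 1 to 10 CPM. Collagens had 14 of 22 members higher and 0 lower (median 2.38), cadherins 15 of 51 and 0 (0.94), and ion channels 53 of 127 higher with 6 lower (0.92). Integrins and laminins had 9 of 32 higher and 2 lower (0.44), keratins 1 of 21 higher and 2 lower (-0.09), so the shares of cadherins (29.4%) and of integrins and laminins (28.1%) were near those of scarce genes. Among genes at 10 CPM or more the cadherin median was -0.13 and that of ion channels 0.07. The summed level of the cadherins was 504 to 541 CPM in Hyper-organoids against 593 and 643 CPM. Col27a1 was at 5.79, 10.8 and 5.86 CPM in Hyper-organoids and at 0.154 and 0.0244 CPM in -VE-organoids (6.49; 8.22 and 5.61 without -VE-organoid replicate 1 and 2). Cdh3 (P-cadherin, an adhesion molecule of basal and fetal epithelia) was at 8.71, 9.31 and 7.14 CPM against 0.0599 and 0.0609 CPM (7.09 ± 0.31, adjusted p = 5.52e-06). Kcne3, a potassium channel subunit of chloride-secreting crypt cells, went the other way, at 25.6, 34.6 and 43.3 CPM against 73.6 and 102 CPM (-1.35). Cell types outside the epithelium were checked beside these lists. The summed level of 5 fibroblast markers was 2.44, 1.20 and 1.40 CPM in Hyper-organoids and 0.650 and 0.408 CPM in -VE-organoids, with 3 of 5 called higher. The 9 leukocyte markers summed to 5.25 to 7.48 against 5.42 and 5.88 CPM, and Ptprc, which defines leukocytes, had 0 UMIs in all 5 libraries. The 7 neural and glial markers summed to 7.97 to 12.7 against 4.89 and 6.23 CPM, and the 6 endothelial markers to 17 to 29.5 against 15.1 and 16.4 CPM. The part of such cells in the rises was not tested.

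**Figure D3:**
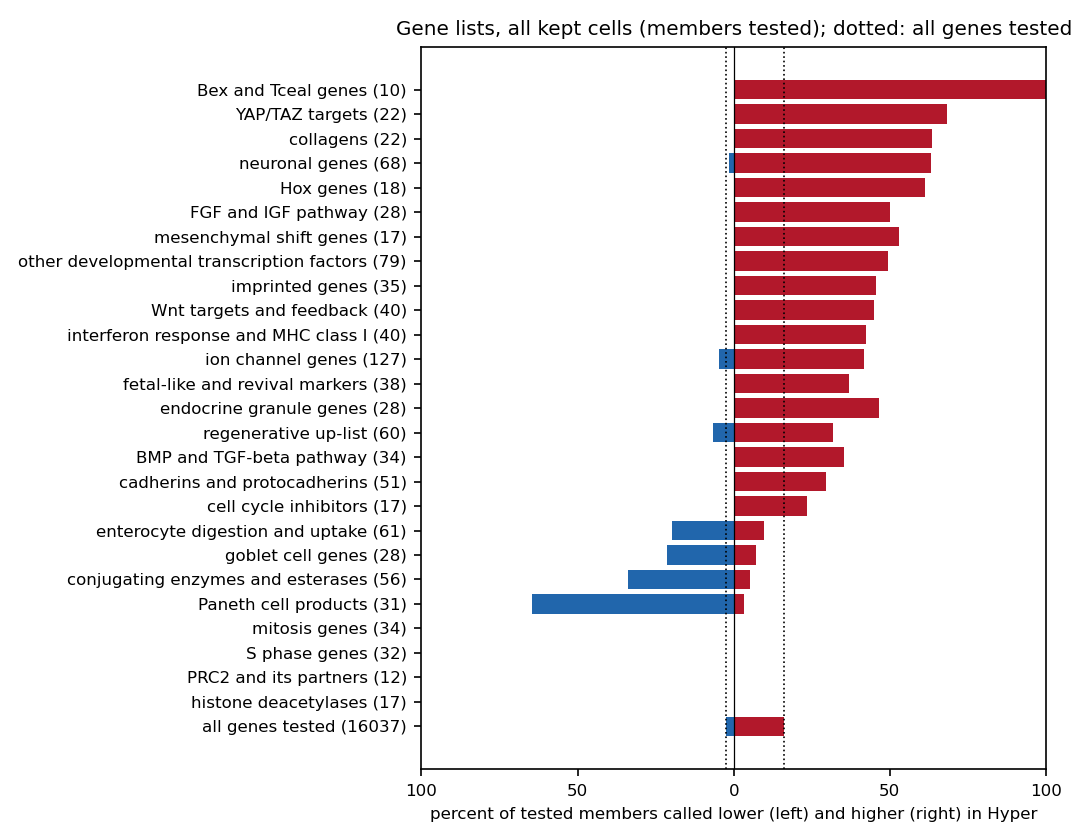
For 26 gene lists and all genes tested, the percent of tested members called higher in Hyper-organoids (bars to the right) and lower (bars to the left) over all kept cells; dotted lines mark all genes. Bex and Tceal genes stand at 10 of 10 higher, Paneth cell genes at 20 of 31 lower, and PRC2, HDAC, S phase and mitosis genes have no called member.

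Signalling genes were called in part, beside 16.1% of all genes called higher, 31.8% of those under 1 CPM and 24.9% of those at 1 to 10 CPM. In the Wnt pathway, which keeps crypt stem cells dividing, 18 of 40 members were higher and 0 lower (median 0.78). Fzd3, a Wnt receptor, was at 15.6, 15.1 and 16.9 CPM in Hyper-organoids against 1.51 and 0.846 CPM (3.77), and Nkd1, a feedback inhibitor, at 26.2, 11 and 5.83 against 0.890 and 0.371 CPM (4.54), highest at passage 1. Nkd1 gave 3.77 without that library and 5.28 without -VE-organoid replicate 1, still called. The target Sp5, at 1.01, fell below 2-fold without Hyper-organoid replicate 1 (0.84). Fibroblast and insulin-like growth factor genes had 14 of 28 higher and 0 lower (1.12; 1.78 without -VE-organoid replicate 1). They included the receptor Igf1r, at 39.3, 55.9 and 49.3 against 17.9 and 11.1 CPM (1.74), and the fetal RNA-binding protein Igf2bp3, at 36.3, 59.7 and 57.9 against 5.54 and 4.80 CPM (3.31). Of the BMP and TGF-β list 12 of 34 were higher (0.48), with the ligand Tgfb1 at 18.6, 23 and 24.4 against 1.81 and 1.84 CPM (3.59 ± 0.21, adjusted p = 1.97e-05). Hedgehog genes had 5 of 10 higher (1.15), with the ligand Shh at 3.54, 6.17 and 5.19 against 0.188 and 0.0487 CPM (5.45; 6.65 and 4.73 without -VE-organoid replicate 1 and 2). In the Notch list 8 of 27 were higher (0.26), a share near that of scarce genes, and the target Hes1 had a difference of 0.67.

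Of 22 genes of the YAP/TAZ list, 15 were higher and 0 lower (median 2.28), beside 16.1% of all genes higher, 2.51% lower, and 31.8% higher of those under 1 CPM. The list holds genes commonly used as targets of YAP and TAZ, the coactivators of the Hippo pathway that act through TEAD factors, and also the TEAD factor Tead2. The latter was at 38.6, 38.3 and 27.7 CPM in Hyper-organoids against 6.02 and 4.55 CPM in -VE-organoids (2.73 ± 0.23, adjusted p = 9.13e-05). Amotl1, which binds YAP, was at 14.3, 23.3 and 18.5 against 0.462 and 0.451 CPM (5.35), whereas Cyr61, a classic YAP target, was at 56.5, 25.8 and 26.8 against 25.8 and 16.8 CPM (0.78, adjusted p = 0.108). Fetal and revival genes had 14 of 38 members higher and 0 lower (1.1), a share of 36.8%, near that of scarce genes. The study's supplement lists genes that rise and genes that fall in published injury models, and here 19 of 60 of the former were higher with 4 lower (0.43), also near the share of scarce genes, and 1 of 54 of the latter was higher with 12 lower (-0.42).

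Clu, the marker of revival stem cells, was at 6.00, 54.8 and 53.8 CPM in Hyper-organoids and at 8.06 and 4.85 CPM in -VE-organoids (2.57, edgeR adjusted p = 0.0537), so the Hyper-organoid library at passage 1 lay between both -VE-organoid libraries. Without that library the difference was 3.08 (adjusted p = 0.00336). Ly6a (Sca-1) also had its passage 1 value between the -VE-organoid values, at 9.10, 27 and 91.6 CPM against 6.07 and 10.9 CPM. Its call (2.32, adjusted p = 0.0479) was lost without any 1 library other than Hyper-organoid replicate 1, with an adjusted p of 0.208 without -VE-organoid replicate 1 and a difference of 1.09 without Hyper-organoid replicate 3. The antimicrobial lectin Reg3g was at 234, 502 and 812 CPM against 8.70 and 8.62 CPM (5.90 ± 0.54, edgeR adjusted p = 1.36e-04), and its neighbour Reg3b at 156, 347 and 542 CPM against 7.68 and 1.5 CPM (6.27 ± 1.01, adjusted p = 0.00167), so all Hyper-organoid libraries lay above. Reg3b gave 7.87 and 5.52 without -VE-organoid replicate 1 and 2. In -VE-organoids 88.4% of the Reg3b UMIs came from cells of the enterocyte (EC) class, and in Hyper-organoids 42.8% came from SC and 54.8% from TA. Interferon and MHC genes had 17 of 40 members (42.5%) higher and 0 lower (0.82), beside 16.1% of all genes and 31.8% of those under 1 CPM higher. Among the members was H2-Ab1, an MHC class II chain, at 26.7, 14.6 and 25.4 against 1.16 and 0.365 CPM (4.91; 5.93 and 4.28 without -VE-organoid replicate 1 and 2).

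The S phase and mitosis lists had no called gene, beside 16.1% of all genes called higher and 2.51% lower. Among genes at 10 to 100 CPM, 3.74% were called higher and 1.02% lower. Of 32 S phase genes 0 were called by edgeR or DESeq2, with 1 higher and 15 lower at an unadjusted p under 0.05 (median -0.16). Of 34 mitosis genes 0 were called by either tool, with 0 higher and 25 lower at that level (-0.24). Among 90 ribosomal protein genes, 3 were higher and 50 lower at the same level. With no fold limit, edgeR at an adjusted p below 0.05 gave 14 S phase genes lower and 1 higher. It gave 18 mitosis genes lower and 0 higher, and these counts stand without the share of all genes. The median over all genes was -0.12 at 10 to 100 CPM and -0.18 above 100 CPM. Among 17 cell cycle inhibitors 4 were higher and 0 lower, a share (23.5%) between the 16.1% of all genes and the 31.8% of those under 1 CPM. Cdkn2a, which codes for p16 and p19Arf and is a known Polycomb target, was at 13.0, 5.37 and 26.8 CPM in Hyper-organoids against 0.197 and 0.134 CPM in -VE-organoids (6.53 ± 0.81, adjusted p = 4.93e-04), and at 5.82 on the log2 scale without Hyper-organoid replicate 3. Cdkn1a (p21) was at 95.3, 82.0 and 116 against 57.5 and 36.5 CPM, and its call at 1.06 ended without -VE-organoid replicate 2 (0.78), without Hyper-organoid replicate 3 (0.92) and with the culture series as a block (0.97). Phlda3, a p53 target, was at 24.3, 23.8 and 31.8 against 7.08 and 6.03 CPM (2.02).

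Paneth cells guard the crypt base with antimicrobial peptides, and of 31 Paneth cell genes tested, 20 were lower and 1 higher (median -2.23), beside 2.51% lower over all genes. Defa30, an α-defensin secreted against bacteria, was at 73.6, 43.6 and 32.9 CPM in Hyper-organoids and at 655 and 447 CPM in -VE-organoids (-3.46 ± 0.33, edgeR adjusted p = 1.46e-04), and ENR-organoids were at 480 to 655 CPM. Defa29 was at 3.41, 3.65 and 2.96 against 51.2 and 42.4 CPM (-3.80 ± 0.14, adjusted p = 3.14e-06), and Defa24 at 730, 405 and 572 against 2576 and 2385 CPM (-2.13). Defensin genes are near-identical copies, so their separate values are uncertain. Lyz1 (lysozyme) was at 455, 123 and 231 against 869 and 1267 CPM (-1.99), and lost the call without -VE-organoid replicate 2 (-1.68, adjusted p = 0.056), with -2.59 without Hyper-organoid replicate 1. Cells of the Paneth class (PC) gave 90.5% of the Defa30 UMIs in -VE-organoids and 56.1% in Hyper-organoids. In sums over all cells, fewer cells of a type and less RNA per cell cannot be told apart. Within PC, with CPM pooled over libraries, Defa30 was at 32918 CPM in Hyper-organoids against 60551 CPM, and Lyz1 at 31774 against 35435 CPM. Defa3 was at 1381 against 1592 CPM, and Ang4 at 6399 against 3097 CPM. The Hyper-organoid PC values rest on 10, 2 and 2 cells, and the part of cell numbers was not tested.

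Enterocyte and goblet genes were called lower more often than all genes, and granule genes of hormone-secreting cells were called higher more often. Of 61 enterocyte genes 12 were lower and 6 higher (median -0.49), beside 2.51% and 16.1% of all genes. Fabp2, an intestinal fatty acid binding protein, was at 134, 149 and 164 CPM in Hyper-organoids against 338 and 398 CPM (-1.30 ± 0.11, adjusted p = 1.1e-04), while Espn, which bundles actin in microvilli, was at 122, 107 and 111 against 21.9 and 16.2 CPM (2.57, adjusted p = 2.82e-05). Clca4b, a calcium-activated chloride channel regulator (3:144910921-144932529), was at 4.17, 5.28 and 4.00 against 61.1 and 50.0 CPM (-3.63 ± 0.18, adjusted p = 9.36e-06). It was not limited to enterocytes, with 61.2 and 59.2 CPM in SC of -VE-organoids. These enterocyte counts are sums over all cells, and the EC class was 0.985% of Hyper-organoid and 5.96% of -VE-organoid cells. Within EC, with CPM pooled over libraries, Fabp1 was at 19300 CPM in Hyper-organoids against 6575 CPM, and Reg1 at 2357 against 516 CPM. Rbp2 was at 2352 against 1976 CPM, and Apoa1 at 1087 against 885 CPM. The Hyper-organoid EC values rest on 7, 58 and 21 cells, and the part of cell numbers was not tested. Of 28 goblet genes 6 were lower and 2 higher (-0.65), beside the same 2.51% and 16.1% of all genes. Fcgbp, a mucus protein, was at 49.8, 84.3 and 111 against 198 and 183 CPM (-1.22), which became -0.96 without Hyper-organoid replicate 1. Granule genes of hormone-secreting cells had 13 of 28 higher and 0 lower (0.87), and enteroendocrine transcription factors 5 of 23 and 0, beside 16.1% of all genes and 24.9% of those at 1 to 10 CPM called higher. Prox1, one of these, was at 11.9, 6.10 and 5.88 against 1.23 and 0.597 CPM (3.14; 3.75 without -VE-organoid replicate 1).

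Of 29 crypt stem cell genes 3 were higher and 1 lower (median 0.29), no larger a share than the 16.1% higher and near the 2.51% lower of all genes. Lgr5 was at 148, 146 and 113 CPM in Hyper-organoids and 92.4 and 73.3 CPM in -VE-organoids (0.71, edgeR adjusted p = 0.00775, under 2-fold). Olfm4, a marker of crypt base cells, was at 573 CPM at passage 1 but at 20.0 and 34.0 CPM in the other 2 Hyper-organoid libraries, against 1923 and 1312 CPM in -VE-organoids (-2.95 ± 1.20, adjusted p = 0.0739). The groups did not overlap, but the Hyper-organoid library at passage 1 stood far above the other 2. Without it, Olfm4 was called at -5.91, and with the culture series as a block and all libraries it was called at -3.54.

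Metabolic genes split by function. Glutathione transferases and other conjugating enzymes, which clear foreign compounds, had 19 of 56 lower and 3 higher (median -0.82), beside 2.51% of all genes lower. Gsta3 was at 40.6, 19.4 and 17.6 CPM in Hyper-organoids against 169 and 196 CPM in -VE-organoids (-2.82 ± 0.33, adjusted p = 3.62e-04), and Gstm1 at 190, 198 and 142 against 514 and 471 CPM (-1.48). Cytochrome P450 genes had 10 of 47 higher and 10 lower, beside 16.1% and 2.51% of all genes. Cyp1a1 was at 41.1, 35.5 and 21.4 against 3.40 and 2.36 CPM (3.51), and Cyp2c65 at 19.8, 31.2 and 29.8 against 63.8 and 77.2 CPM (-1.39). Of 24 cholesterol synthesis genes 0 were called by edgeR or DESeq2, with 0 higher and 17 lower at an unadjusted p under 0.05 (-0.30). Of 90 respiratory chain genes 1 was higher and 2 lower at 2-fold (-0.27), but 60 were lower and 1 higher at an adjusted p below 0.05 with no fold limit. For 77 of them every Hyper-organoid library lay below both -VE-organoid libraries (32.9% of all genes did), and their summed level was 32854 to 33125 CPM against 39537 and 39613 CPM. Other abundant genes were lower too. Of 90 ribosomal protein genes 41 were lower and 2 higher at an adjusted p below 0.05 with no fold limit, and the median over all genes above 100 CPM was -0.18. The respiratory and ribosomal counts with no fold limit stand without the share of all genes at that level. Genes induced by cell dissociation had 3 of 16 higher and 0 lower (0.30), a share near that of all genes, and the immediate early gene Atf3 was at 92.5, 43.4 and 54.5 against 24.9 and 12.7 CPM (1.76). The part of tissue dissociation in these calls was not tested.

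Within each of the 4 cell classes, rises outnumbered falls. In SC 16.5% of 13920 genes were called (14.7% higher, 1.76% lower), in TA 17.8% of 14553 (15.5% and 2.32%), in GC 9.87% of 11714 (8.72% and 1.15%) and in EE 4.01% of 11050 (3.52% and 0.489%). These shares give no ranking of the classes, because SC and TA sums held more UMIs than GC and EE sums. When every class sum was thinned to 973667 UMIs, edgeR called 501 genes in SC, 463 in TA, 363 in GC and 264 in EE. Without -VE-organoid replicate 2, GC gave 728 called genes instead of 1156 and EE 134 instead of 443, and EE gave 286 without Hyper-organoid replicate 2 and 261 without Hyper-organoid replicate 3.

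In SC, Bex4 was at 176, 272 and 240 CPM in Hyper-organoids and at 0.134 and 0.0271 CPM in -VE-organoids (11.50, edgeR adjusted p = 4.58e-07), and Lpl at 23.7, 20.1 and 22.4 against 0.101 and 0.0542 CPM (8.12). Reg3b was at 184, 410 and 591 against 0.435 and 0.108 CPM (10.57 ± 0.72, adjusted p = 1.06e-05), while over all -VE-organoid cells most Reg3b UMIs came from enterocytes. Leaving out -VE-organoid replicate 1 or 2 gave 12.82 or 10.69 for Bex4 and 11.76 or 9.81 for Reg3b, all still called. Zfhx4 had 3134 UMIs against 2, a ratio of 722 (95% counting interval 200 to 5962). Beside 14.7% of all genes higher and 1.76% lower in SC, developmental transcription factors had 34 of 58 members higher and 0 lower (median 2.58), Hox genes 11 of 16 and 0 (3.16), YAP/TAZ genes 13 of 20 and 0 (2.16), and collagens 10 of 13 and 0 (3.60). Fetal and revival genes had 20 of 35 higher and 0 lower (1.82). Among them Ly6a was at 12.6, 21.5 and 74.7 CPM against 1.61 and 3.90 CPM (3.68, adjusted p = 0.00515), and Clu at 5.82, 40.7 and 26.6 against 2.31 and 3.98 CPM (2.94, adjusted p = 0.00737), and in SC the groups did not overlap for either gene. The call for Clu was lost without -VE-organoid replicate 1 (2.59, adjusted p = 0.0617), and Ly6a was at 4.48 without -VE-organoid replicate 2 and 2.61 without Hyper-organoid replicate 3.

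The S phase list in SC had 2 of 32 members called lower and 0 higher, beside 1.76% and 14.7% of all genes, with a median of -0.63. All 32 were lower at an adjusted p under 0.05 whatever the fold, a count that stands without the share of all genes. Mcm7, part of the replicative helicase, was at 125, 119 and 111 CPM in SC of Hyper-organoids and at 179 and 189 CPM in SC of -VE-organoids (-0.64). Top2a, a topoisomerase that is highest in dividing cells, was at 26.9, 24.4 and 21.1 against 55.3 and 72.2 CPM (-1.40, edgeR adjusted p = 4.51e-05). The S phase median was 0.06 in TA, -0.49 in GC and -0.87 in EE, so it was not below 0 in SC alone. Members called lower in TA, GC and EE were 0, 0 and 3, beside 2.32%, 1.15% and 0.489% of all genes. Mcm7 differed by -0.14 in TA. Olfm4 in SC was at 593, 20.9 and 35.4 CPM against 2555 and 1799 CPM (-3.33 ± 1.1, adjusted p = 0.0333), a call lost without any 1 -VE-organoid or ENR-organoid library and without Hyper-organoid replicate 3, with -6.25 without Hyper-organoid replicate 1. Clca4b in SC was at 4.33, 3.57 and 4.33 against 61.2 and 59.2 CPM (-3.89, adjusted p = 5.88e-07).

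In TA the largest rises by the fit, among genes at 20 CPM or more, were those of Zfhx4, Bex4 (11.27) and Reg3b (10.47). Reg3b was at 155, 345 and 602 CPM in Hyper-organoids and 0.434 and 0.131 CPM in -VE-organoids (11.43 and 9.71 without -VE-organoid replicate 1 and 2). Zfhx4 had 4615 UMIs against 1 in TA, a ratio of 3608 (647 to 142547). Ldhb was at 67.2, 61.9 and 71.1 CPM against 0.628 and 0.131 CPM (7.61; 8.97 and 6.71 without -VE-organoid replicate 1 and 2). Paneth genes in TA had 18 of 27 lower and 3 higher (-2.40), beside 2.32% lower and 15.5% higher of all genes. In SC 14 of 26 were lower and 4 higher (-2.37), beside 1.76% and 14.7%. In GC 5 of 28 were lower and 5 higher (-0.01), beside 1.15% and 8.72%, and in EE 0 of 20 lower and 2 higher (-0.09), beside 0.489% and 3.52%. Defa30 was at 2.36, 0.713 and 0.625 CPM in TA against 26.6 and 17.4 CPM (-4.08; -5.01 without Hyper-organoid replicate 1). Droplets also take up free RNA, and the PC class, which gave most Defa30 UMIs, was 1.31% of -VE-organoid cells and 0.171% of Hyper-organoid cells. The part of free RNA in the defensin values of TA and SC was not tested. Alpi, the intestinal alkaline phosphatase of the brush border, was at 0.744, 3.01 and 2.82 CPM in TA against 7.35 and 34.5 CPM (-3.28, edgeR adjusted p = 0.00368). Alpi gave -1.77 without -VE-organoid replicate 2 and -4.0 without -VE-organoid replicate 1, called in both cases.

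In GC, Bex4 had 3645 UMIs in Hyper-organoids against 1 in -VE-organoids, a ratio of 3953 (709 to 156165). Peg3, with 0 UMIs in GC of -VE-organoids, was at least 220-fold higher, taking 3 UMIs over the group as the floor. Neurog3, the factor that starts the enteroendocrine programme, was at 125, 72.8 and 90.4 CPM in GC of Hyper-organoids and at 27.4 and 21.8 CPM in GC of -VE-organoids (1.98 ± 0.20, edgeR adjusted p = 6.37e-05). Ldhb was at 18.9, 11.6 and 17.8 against 1.04 and 0.317 CPM (4.74; 5.59 and 3.92 without -VE-organoid replicate 1 and 2). Dmbt1, a mucin-like defence glycoprotein, was at 2.02, 9.83 and 14.2 against 41.7 and 140 CPM (-3.47; -2.32 without -VE-organoid replicate 2), and Gsta3 at 17.4, 7.45 and 4.46 against 70.5 and 114 CPM (-3.20; -3.91 without Hyper-organoid replicate 1). Goblet genes themselves had 1 of 28 higher and 3 lower (-0.32), beside 8.72% and 1.15% of all genes.

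In EE, Bex4 had 0 UMIs in both -VE-organoid libraries and 140, 228 and 182 CPM in Hyper-organoids, at least 216-fold higher, and Itm2a, with 0 UMIs in -VE-organoids, was at 58.3, 51.3 and 53.7 CPM, at least 65.5-fold higher. Gcg, which codes for the incretin hormone GLP-1, was at 19.6, 12.5 and 10.3 CPM in EE of Hyper-organoids and at 2277 and 518 CPM in EE of -VE-organoids (-6.59 ± 0.72, edgeR adjusted p = 5.12e-04), and ENR-organoids were at 1071 to 4643 CPM. Without -VE-organoid replicate 1 or 2 Gcg was at -5.18 or -7.30, still called. Sst (somatostatin) showed the opposite order, at 328, 1805 and 2262 against 3.03 and 0 CPM. ENR-organoids, at 141, 0 and 854 CPM, overlapped the Hyper-organoids. The log2 difference of 9.96 had an SE of 2.23 (adjusted p = 0.0249), and the call was lost without either -VE-organoid library or Hyper-organoid replicate 3. The granule protein Chgb did not follow, at 5644, 14063 and 11202 against 11256 and 10478 CPM (-0.08, adjusted p = 0.93). Hormone genes in EE had 1 of 19 higher and 2 lower, beside 3.52% and 0.489% of all genes. Granule genes had 1 of 27 higher and 1 lower in EE (0.23), where 3.52% of all genes were higher. They had 10 of 18 and 0 in SC (1.56), 14 of 19 and 0 in TA (2.18), and 10 of 18 and 0 in GC (1.51), where 14.7%, 15.5% and 8.72% of all genes were. The EE classes held 73 and 89 cells in -VE-organoids and 86 to 107 cells in Hyper-organoids.

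**Figure D4:**
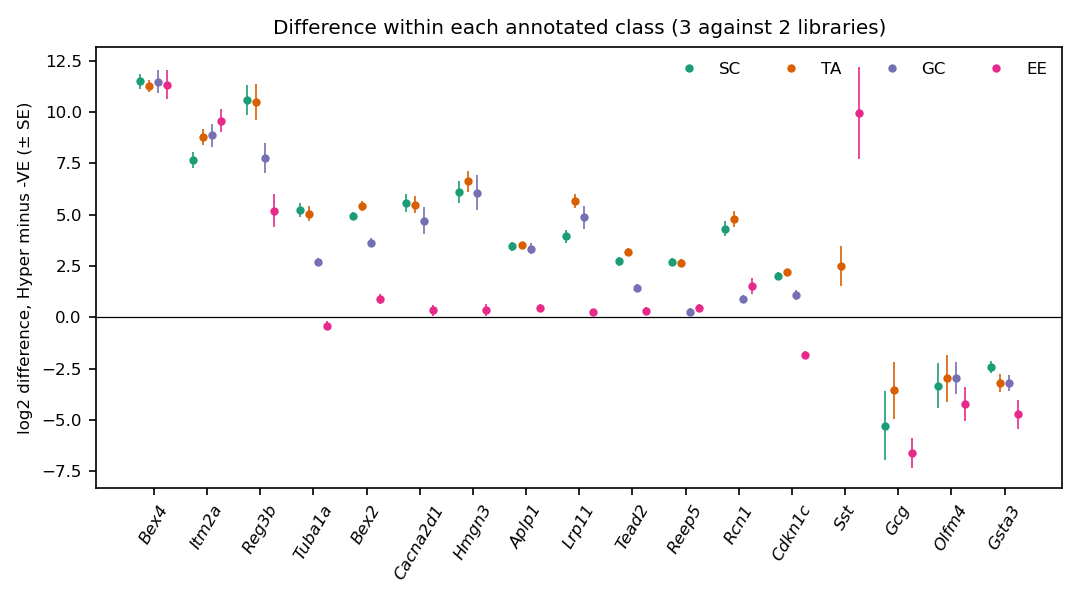
Log2 difference, Hyper minus -VE, of 17 genes within SC, TA, GC and EE, with bars of 1 SE. Bex4 lies above 11 in all 4 classes (in EE by the fit, since -VE-organoids had 0 UMIs there), while Cdkn1c is above 1 in SC, TA and GC and at -1.82 in EE.

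The difference made by the inhibitors depended on the class for 14.7% of 14555 genes (edgeR test of the class by medium terms, adjusted p below 0.05, libraries as blocks), but for 1221 and 1142 genes without -VE-organoid replicate 1 and 2. Cdkn1c (p57), an imprinted cell cycle inhibitor, reversed: its log2 difference was 2.04 in SC, 2.23 in TA, 1.1 in GC and -1.82 in EE. In TA it was at 19.9, 19.6 and 19.6 CPM in Hyper-organoids against 4.03 and 4.36 CPM, and in EE at 98.6, 97.0 and 146 against 464 and 337 CPM (adjusted p = 5.06e-04). Tuba1a, a tubulin of neurons, had differences of 5.22, 5.05, 2.68 and -0.40 in SC, TA, GC and EE, and its mean in -VE-organoids was 1.80 CPM in SC and 505 CPM in EE. In Hyper-organoids those means were 66.9 and 382 CPM. Hmgn3, a nucleosome binding protein, differed by 6.11, 6.63, 6.06 and 0.35 in the same order, with -VE-organoid means of 0.100 CPM in SC and 245 CPM in EE. Aplp1, a neuronal amyloid precursor-like protein, differed by 3.46, 3.50, 3.35 and 0.44. These genes were thus already high in EE without the inhibitors, and in Hyper-organoids were higher in the other 3 classes.

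Of the 1808 class-dependent genes fitted in all 4 classes, 974 had the same sign in each and 8 had opposite signs of at least 2-fold. EE was the class farthest from the median of the 4 for 982, TA for 324, GC for 307 and SC for 195. Of those 982 genes, 76.7% were highest in EE among the 4 classes of -VE-organoids, beside 54.3% of the 10493 genes tested in all 4 classes. The level in -VE-organoids enters the difference itself, so this is a description. Depth differed between the classes here too, and thinned sums gave 212 class-dependent genes.

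The classes made up different shares of the cells. SC were 40.0%, 42.0% and 44.1% of Hyper-organoid cells and 28.2% and 24.3% of -VE-organoid cells (42.1% ± 2.0 SD, n = 3, against 26.2% ± 2.8, n = 2), and ENR-organoids averaged 12.2%. TA were 46.4% ± 3.8 against 51.1% ± 2.8. Enterocytes were 0.985% against 5.96%, enterocyte progenitors (EP) 0.0976% against 4.34% and PC 0.171% against 1.31%. For SC, GC, EC, EP and PC the groups did not overlap, with an exact two-sided permutation p of 0.2 each (the smaller one-sided p doubled, which with 3 against 2 libraries cannot go lower), and an adjusted p of 0.36 over 9 classes. Classes were cut by the authors from the same expression values, so their shares and their genes are not independent.

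**Figure D5:**
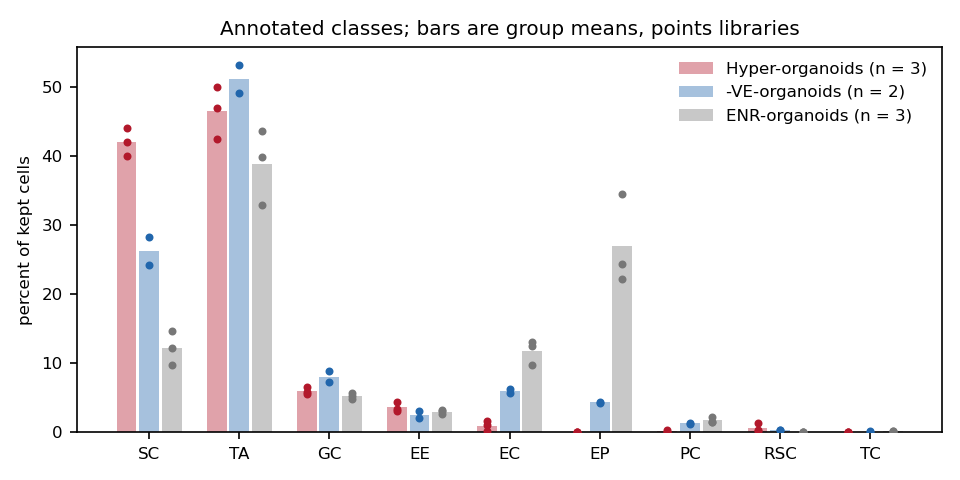
Share of kept cells in each class, in percent, for Hyper-, -VE- and ENR-organoids; bars are group means and points are libraries. SC points lie at 40.0% to 44.1% in Hyper-organoids and at 24.3% and 28.2% in -VE-organoids, and EP bars fall from 4.34% in -VE-organoids to 0.0976% in Hyper-organoids.

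Hyper-organoid cells had somewhat more genes with a UMI at equal depth. With every cell thinned to 10000 UMIs, the median was 3084, 3074 and 3010 genes per cell in Hyper-organoids and 2936 and 2987 in -VE-organoids, a difference of 94.5 genes with no overlap (exact two-sided permutation p = 0.2). At 5000 UMIs per cell the difference was 44.8 genes and the groups overlapped (exact permutation p = 0.4), and unthinned medians differed by 245 genes. The difference at equal depth was 87.3 in SC, 101 in TA, 66.7 in GC and 86.8 in EE, and in GC the groups overlapped, with 2847 genes in Hyper-organoid replicate 3 and 2903 in -VE-organoid replicate 2.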

How the data were processed

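RNA was measured by single-cell sequencing of mouse organoids (10x Genomics 3′ kit, version 3). The deposited values are UMI counts of 31053 genes per cell barcode, which the authors made with Cell Ranger against mm10, version 3.0.0 in the submitters' processing notes and 3.1.0 in the file headers, without normalization; the authors kept cells and assigned classes with Seurat 3.1.4. The stated minimum of 1500 genes per cell is not met by 30 to 109 kept cells of the 5 libraries. No doublet caller was run here, and the cluster numbers behind the classes were not used.

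Counts of kept cells were summed per library, and per library and class. Genes passed edgeR's filter on low counts by group (filterByExpr). A gene high in a single group could thus pass, in the lists as among all genes. All 8 organoid libraries, 3 ENR-organoid libraries included, shared 1 fit by edgeR 4.0.16 (R 4.3.3, TMM scaling, quasi-likelihood test, contrast Hyper minus -VE) with Benjamini-Hochberg adjustment over all genes tested, and a called gene had an adjusted p below 0.05 and at least a 2-fold difference. CPM are per TMM-adjusted library size, except that class markers were scaled over the pooled UMIs of a group. The ± values beside log2 differences are standard errors, taken as the log2 difference over the square root of F. Class dependence was tested on 32 class sums with the library as a block. Exact permutation p-values double the smaller one-sided p, which with 3 against 2 libraries cannot go below 0.1, so p cannot go below 0.2. Intervals are 95% and cover counting error only; a group with 0 UMIs was given a floor of 3 UMIs over the group. The fit was tested on simulated data.

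Genes were named by size: over all cells the 15 largest rises and falls at 10 CPM or more, in each class the 5 largest at 20 CPM or more, in each of 66 gene lists up to 4 called and 2 uncalled members with the highest level, a fixed set of targets and markers, and 10 class-dependent genes. The largest rises and falls were taken only among called genes whose Hyper- and -VE-organoid libraries did not overlap. Gene symbols such as Ptprc, Eif2s3y, Ddx3y and Xist and the class markers were named as checks. The members and lists were chosen with earlier results of these data known. Gene positions are from GENCODE, promoters from RefSeq. Alternatives used DESeq2 1.42.0, limma 3.58.1, other filters, scalings, cells and libraries. Some results are not reported here.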

Additional observations from a re-analysis of the deposited data

Results flagged for a closer look

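The difference between Hyper- and -VE-organoids depended on the cell class for 2146 genes by edgeR's test of the class by medium terms. Of the genes with the smallest adjusted p at 20 CPM or more in a class, 10 are given with the log2 difference in EE minus that in SC. It was -5.595 for Tuba1a, -4.105 for Bex2, -5.249 for Cacna2d1, -3.945 for Cdkn1c and -5.779 for Hmgn3. It was -3.051 for Aplp1, -2.322 for Reep5, -3.725 for Lrp11, -2.472 for Tead2 and -2.88 for Rcn1. In all 10 the difference was larger in SC, and as background Cacna2d1 is a calcium channel subunit, Aplp1 an amyloid precursor-like protein and Reep5 shapes the endoplasmic reticulum. For Cdkn1c the 2 classes moved in opposite directions, 2.04 in SC and -1.82 in EE.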

How the results depend on the processing

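Counts of called genes over all cells ranged from 2218 (without -VE-organoid replicate 2) to 3230 (no filter), except 528 of 2985 when genes needed 10 CPM, a filter that leaves fewer genes to test. Thinning to 973667 UMIs per class sum, which removes depth, gave 501 in SC, 463 in TA, 363 in GC and 264 in EE, and 212 class-dependent genes. Leaving out each library in turn gave 728 to 1202 in GC, 134 to 465 in EE and 1142 to 2085 class-dependent genes. Without the low-count filter EE had 893 calls, and limma gave 1010 class-dependent genes; the cause was not tested. The RSC share difference ranged from -0.078 to 0.489 percentage points (reversed without Hyper-organoid replicate 3, against 0.263), and the TC share difference from -0.167 to 0, at 0 without -VE-organoid replicate 1, whose library held all TC cells of both groups.

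With the culture series, inferred from library names, as a replicate block, edgeR called 3063 genes over all cells, 2350 in SC, 2688 in TA, 1231 in GC and 377 in EE; in the 5 libraries alone with this block, an alternative chosen after seeing the data, it called 2492. Over all cells the block took the call from 7 named genes, Ly6a (1.19), Neurog3 (0.91) and Cdkn1a (0.97) among them, gave it to 2, Olfm4 (-3.54) and H1f0 (1.02), and left 221 as they were, and it changed no call of the 50 named within classes. In the 5 libraries alone it took the call from 22 and gave it to 1. Over all alternatives, 149 values of named genes lost their call, 11 gained it and 3904 stayed on the same side of the threshold over all cells, and none changed direction; within classes 19 lost it and 680 stayed on the same side. Of 1183 alternative values of the medians of 66 lists, 256 moved by more than the spread between library pairs and 46, of 19 lists, had another sign. Among genes at 10 CPM or more the medians of cadherins (-0.13), claudins (-0.12), chemokines (-0.71) and Eph receptors (-0.06) changed their sign, as did that of Notch genes, and those of ion channels (0.07), neuronal genes (0.50) and other developmental factors (0.56) were lower than the reported ones; the block moved 18 of 66 medians, and 22 in the 5 libraries alone, where Reg lectins were at -0.20. DESeq2 called 2845 genes and other size factors (RLE) 3008. Deviations of the same series correlated at 0.206 (series 2) and 0.134 (series 6) between Hyper- and -VE-organoids over 16037 genes, values mirrored across series because there are 2 -VE-organoid libraries. Same-series ENR- and Hyper-organoids correlated at 0.268, 0.217 and 0.538, and ENR- and -VE-organoids at 0.176 and -0.01. With 2 Hyper and -VE pairs the numbers were not taken as a pairing in the main comparison.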

Other observations

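Genes on the X chromosome were called higher more often than autosomal genes, 135 of 493 (27.4%) against 2446 of 15509 (15.8%). Without the Bex and Tceal genes the X-linked share was 25.9%, and without Hyper-organoid replicate 3 it was 27.1%. Xist, the RNA that silences an X chromosome, was at 455, 517 and 690 CPM in Hyper-organoids and at 606 and 561 CPM in -VE-organoids, so the groups overlapped. Ddx3y was at 7.64, 9.60 and 0 CPM in Hyper-organoids against 7.12 and 9 CPM in -VE-organoids. Libraries of culture series 2 and 6 (by library name) thus held both Xist and Y-linked transcripts.

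Further genes of defence, tight junctions and stress differed over all cells. Bst2, an interferon-induced membrane protein, was at 54.9, 59.3 and 65.3 CPM in Hyper-organoids against 15.6 and 20.7 CPM (1.72). Psmb8, an immunoproteasome subunit, was at 7.90, 17.4 and 21 against 2.42 and 1.75 CPM (2.89). Cldn4, a claudin of tight junctions, was at 72.8, 76.0 and 64.6 against 22 and 19 CPM (1.80). Of 14 claudin genes 6 were called higher and 0 lower, beside 16.1% and 2.51% of all genes. Nqo1, a target of the oxidative stress factor Nrf2, was at 21.8, 23.9 and 16.9 against 57.2 and 54.7 CPM (-1.42). Of 25 Nrf2 targets 3 were called lower and 0 higher, beside the same 2.51% and 16.1% of all genes. At an adjusted p below 0.05 with no fold limit 16 were lower and 1 higher, a count that stands without the share of all genes.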
